A study of Oryza sativa Indica Group with 24 samples.

Results

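At 28 days post-anthesis (DPA), mature grains of the high-amylose rice RD57 were compared with mature grains of the waxy rice RD6. The comparison covers the genes with a listed value above 0 in every library of both cultivars, some of them values that the authors filled in. A shared gene was one listed above 0 FPKM (sequenced fragments relative to transcript length and to library size) in all 3 RD57 and all 3 RD6 libraries at 28 DPA. There were 17548 shared genes among the 26362 genes of the table. Of the remainder, 7360 had a listed value of 0 in all 6 libraries, 1454 were above 0 in RD57 alone and 0 were above 0 in RD6 alone. Both are untreated Thai indica cultivars grown in pots in a net house, and each is represented by 3 biological replicates at 28 DPA, 6 of the 24 libraries of the series. The other libraries cover 7, 14 and 21 DPA of the same cultivars with 3 replicates each and are used here only to place the 28 DPA values in grain development. Grains were extracted whole although the samples are labelled endosperm, so other grain tissues may contribute to a value. In such bulk RNA, fewer cells of a type and less RNA per cell cannot be told apart, and neither can cultivar and the pace at which its grains matured.

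By 28 DPA, rice grains have completed most of their filling. Starch is made in the endosperm from ADP-glucose, which ADP-glucose pyrophosphorylase (AGPase) supplies, and granule-bound starch synthase I (GBSSI) makes its linear part, amylose. Waxy rice carries little amylose. Storage proteins such as glutelins and globulins are made in the same tissue during filling, and transcripts of both programmes decline as the grain dries. Abscisic acid, read by receptors of the RCAR family, governs maturation and dormancy of seeds.

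RD6 replicate 3 stood apart from the other 28 DPA libraries. Across the shared genes, log2 values of RD6 replicates 1 and 2 correlated with r = 0.98, whereas RD6 replicate 3 correlated with them with r = 0.92 and 0.94. The RD57 libraries correlated with each other with r = 0.97. These correlations are across genes, which are not independent replicates. In RD6 replicate 3, 283 shared genes were at least 4-fold above both of its replicates, against 5 to 22 genes in each of the other 5 libraries. Only 29 were at least 4-fold below both, a number close to the 16 to 28 of the others. The median shared gene had 8.47 to 8.86 FPKM in the RD57 libraries and 8.48 to 9.01 FPKM in the RD6 libraries, so the typical level was alike in all 6.

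The 283 genes raised in RD6 replicate 3 were mostly genes of the filling grain. At 7, 14 and 21 DPA, 77.7% of them had their highest mean at 14 DPA, against 24.5% of all shared genes, and their median level at 14 DPA was 169 FPKM in RD57 and 155 FPKM in RD6. The position of each library in development was then described with genes chosen in other libraries, namely 1107 shared genes that fell and 1165 that rose between 14 and 21 DPA in RD57. Over the falling genes, the mean log2(FPKM + 0.5) was 2.40, 2.34 and 2.49 in RD57 replicates 1, 2 and 3 and 2.52, 2.46 and 3.65 in RD6 replicates 1, 2 and 3. The value of RD6 replicate 3 lay within the range of 21 DPA libraries, 3.00 to 3.66 in RD57 and 3.61 to 4.33 in RD6. Over the rising genes it had 3.59, below the 3.95 to 4.25 of RD57 and the 3.89 and 3.95 of its own replicates. The cause of this difference was not tested, and the counts of DEGs, the named genes and the earlier profiles are given with and without this library.

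**Figure D1:**
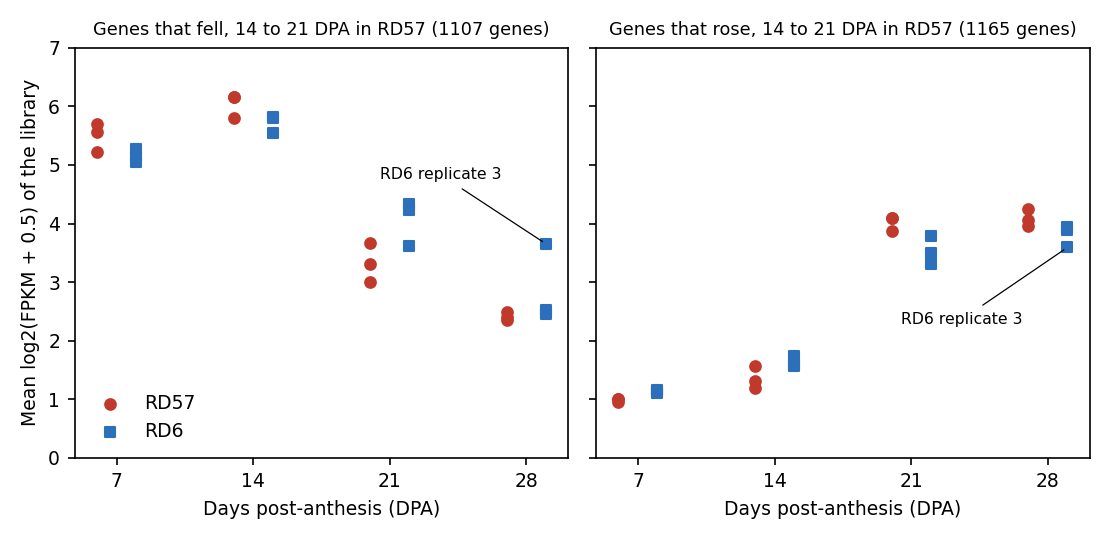
Mean log2(FPKM + 0.5) of each library, by DPA, over the shared genes that fell (left) or rose (right) from 14 to 21 DPA in RD57. Circles are RD57 and squares are RD6, shifted sideways from their DPA. RD6 replicate 3 at 28 DPA has 3.65 over the falling genes, against 2.34 to 2.52 in the other 5 libraries at 28 DPA.

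Most shared genes had similar levels in mature grains of both cultivars. Their median Log2FC, the difference RD57 minus RD6 of mean log2(FPKM + 0.5), was 0.02, the median absolute Log2FC was 0.28, and 92.0% lay below 1 in absolute value. This scale understates the fold of genes close to 0.5 FPKM. With the study's thresholds (adjusted p at most 0.05 and absolute Log2FC of at least 2), limma called 227 shared genes differentially expressed (DEGs), 1.29% of them. Of these, 114 were higher in RD57 (0.65%) and 113 were higher in RD6 (0.644%). Over the whole table, 3.07% of genes were called, 2.64% as higher in RD57 and 0.429% as higher in RD6. The even split holds for shared genes only, since the rule leaves out every gene listed at 0 in RD6. A Log2FC of 3 or more in size was reached by 28 DEGs higher in RD57 and 33 higher in RD6, and one of 4 or more by 8 and 6. With RD6 replicate 3 left out, the counts were 32 and 17 at 3 or more, and 10 and 7 at 4 or more.

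**Figure D2:**
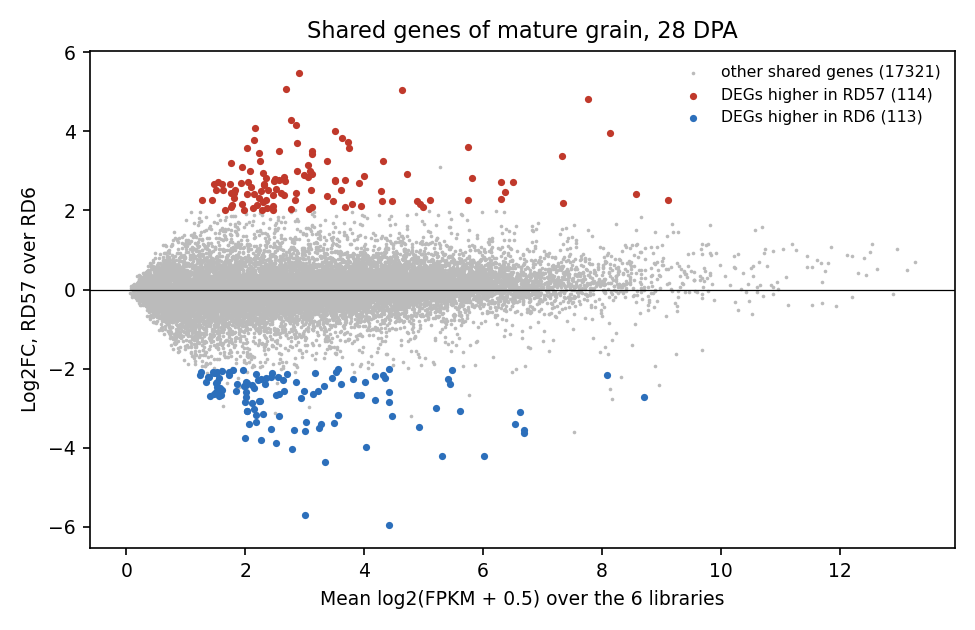
Log2FC (RD57 over RD6) against mean log2(FPKM + 0.5) over the 6 libraries at 28 DPA, 1 point per shared gene. Red points are the 114 DEGs higher in RD57, blue points the 113 higher in RD6, and grey points the other shared genes. The DEGs have Log2FC between -5.96 and 5.46.

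The libraries of the cultivars did not overlap for 112 of the 114 DEGs higher in RD57 and 111 of the 113 higher in RD6. Among all shared genes the RD57 libraries all lay above the RD6 libraries in 15.8% and the RD6 libraries all above the RD57 libraries in 12.3%. The DEGs were called from these same libraries, so their separation largely follows from the call and does not back it. The DEGs higher in RD57 had medians of 20.7, 15.6 and 18.5 FPKM in RD57 replicates 1, 2 and 3, and of 1.79, 2.00 and 2.27 FPKM in RD6 replicates 1, 2 and 3. The DEGs higher in RD6 had medians of 1.81, 1.48 and 1.62 FPKM in the RD57 libraries and 14.3, 13.9 and 20.6 FPKM in the RD6 libraries. The lower cultivar of a typical DEG was thus within a few FPKM of 0.5, below which the authors had excluded values. The filled replicate values of the table touched 18.5% of the DEGs, against 7.89% of shared genes. Without genes that hold a filled value at 28 DPA, 99 DEGs were higher in RD57 and 86 were higher in RD6.

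Leaving out RD6 replicate 3 gave 131 DEGs higher in RD57 and 103 higher in RD6 (1.33% of shared genes together). The balance moved the other way when another RD6 library was left out, to 113 and 167 without RD6 replicate 1 and to 114 and 169 without RD6 replicate 2, and quantile normalization gave 94 and 121. Of the 114 and 113 DEGs called with all libraries, 104 and 83 were called again, so that 10 of those higher in RD57 and 30 of those higher in RD6 were lost. There were 27 new calls higher in RD57 and 20 higher in RD6. A fit to the 6 libraries at 28 DPA, which takes no estimate of spread from the earlier DPA, called 105 and 78. All 3 fits called 97 genes higher in RD57 and 75 higher in RD6. By adjusted p alone, 1468 shared genes were higher in RD57 (8.37%, against 11% of the table) and 1078 were higher in RD6 (6.14%, against 4.09%). These counts were 1500 and 1142 once RD6 replicate 3 was left out. The direction of that split depended on the normalization, since quantile normalization turned it to 41.8% higher in RD57, against 57.7% without it. Centring the 28 DPA libraries on the median of the shared genes kept it, with 58.9% higher in RD57. The settings other than quantile normalization gave 54.7% to 62.2%. Why quantile normalization turned it was not tested.

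**Figure D3:**
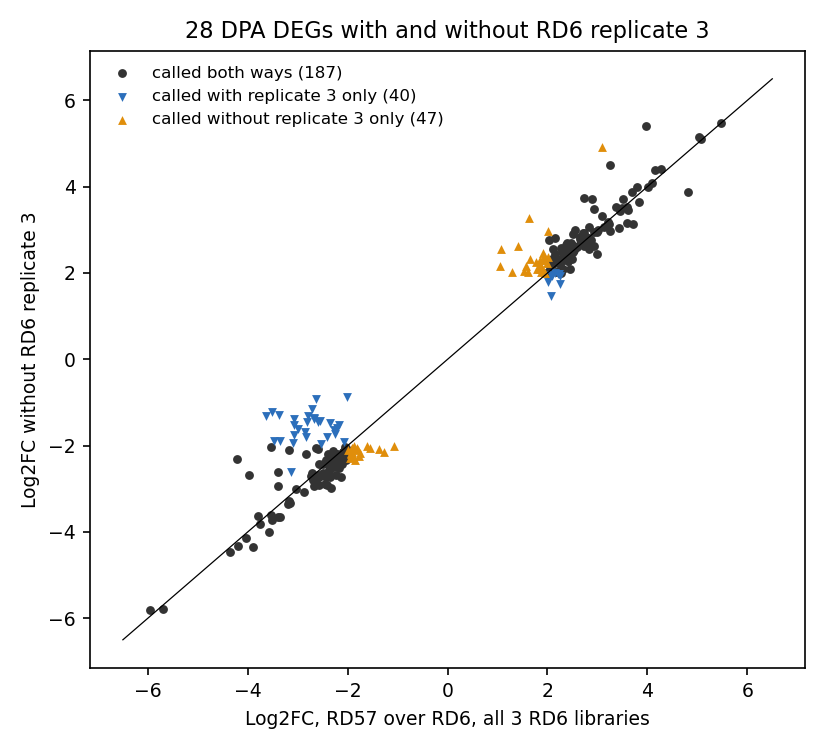
Log2FC (RD57 over RD6) of shared genes called DEGs at 28 DPA in either fit, with all 3 RD6 libraries (horizontal) and without RD6 replicate 3 (vertical). The line marks equal values, and blue triangles in the lower left are the 30 genes higher in RD6 that lost their call.

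The genes with the largest differences that all 3 fits called were at or near the floor of the table in 1 cultivar. The table names genes by assembly identifiers alone, so these are given without a function. XLOC_003542 had 44.7, 79.6 and 33.5 FPKM in RD57 and 0.544, 0.712 and 0.630 FPKM in RD6. Every RD57 library was far above every RD6 library, and the means were 52.6 ± 24.03 and 0.629 ± 0.0842 FPKM (SD, n = 3 each). The ratio of the means was 83.6, and the Log2FC was 5.46 ± 0.22 (SE, adjusted p = 1.4e-13, limma). The fit to the 6 libraries at 28 DPA, without the earlier libraries, gave an SE of 0.34 and an adjusted p of 6.5e-05 (limma). Its RD57 means were 0.797, 5.71 and 54.7 FPKM at 7, 14 and 21 DPA, while RD6 was listed at 0 at those DPA.

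XLOC_022160 had 38.5, 33.9 and 37.8 FPKM in RD57 and 0.604, 0.573 and 0.636 FPKM in RD6, where replicate 1 equals the mean of its replicates as a filled value would. The Log2FC was 5.07 ± 0.14 (SE, adjusted p = 1.8e-16, limma), and the adjusted p in the fit to the 6 libraries was 6.6e-06. Unlike the previous gene, it was nearly constant in RD57 through development, with means of 33.7, 34.8 and 34.5 FPKM at 7, 14 and 21 DPA. In RD6 its means at those DPA were 2.01, 1.46 and 0.694 FPKM.

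In the other direction, XLOC_033945 had 2.76, 2.83 and 1.35 FPKM in RD57 and 119, 195 and 205 FPKM in RD6. All 3 RD6 libraries were high, replicate 3 among them, and the ratio of the RD6 mean to the RD57 mean was 74.8. The Log2FC was -5.96 ± 0.35 (SE, adjusted p = 5.1e-11, limma), and the adjusted p in the fit to the 6 libraries was 2.8e-05. RD6 means of 15.1, 135 and 149 FPKM at 7, 14 and 21 DPA stood against RD57 means of at most 5.89 FPKM, and RD57 was listed at 0 at 7 DPA.

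XLOC_031030 had 0.724, 0.586 and 0.562 FPKM in RD57 and 68.0, 56.0 and 49.4 FPKM in RD6. RD6 replicate 3 was the lowest of the 3 RD6 libraries here, and the groups were still far apart. The Log2FC was -5.69 ± 0.26 (SE, adjusted p = 7e-13, limma), a ratio of 92.6 between the RD6 and RD57 means. The adjusted p in the fit to the 6 libraries was 4.1e-06 (limma). The same direction was called at 7, 14 and 21 DPA, with Log2FC of -4.06, -5.04 and -4.25.

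For 13 shared genes a name could be put beside the identifier from the study's own gene labels, read by eye, and a misread digit would point to another gene. The study chose these genes on the same samples, so their direction is not independent evidence. They are its endosperm genes for starch and storage protein, its RCAR3-like receptors, and genes it names for their pattern over development. Another 6 labelled identifiers, among them the third RCAR3-like gene, were listed at 0 in all 6 libraries at 28 DPA and are not shared genes.

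GBSSI, which makes amylose, was higher in mature RD57 grain. It had 1104, 1088 and 1147 FPKM in RD57 and 29.8, 22.5 and 521 FPKM in RD6. Each RD57 library was above each RD6 library, but RD6 replicate 3 was 19.9 times the mean of its own replicates. The Log2FC was 3.96 ± 0.77 (SE, adjusted p = 7.8e-04, limma). Without RD6 replicate 3 it was 5.40 ± 0.42 (SE, adjusted p = 1.1e-08, limma), a ratio of means of 42.5 in place of 5.83. In the fit to the 6 libraries alone the adjusted p was 0.0964 (limma), so the call there did not hold. The cultivars differed in the same direction at 7 DPA (Log2FC 2.61, adjusted p = 0.0136, limma) and at 21 DPA (3.49, adjusted p = 0.0012, limma), and at 14 DPA the Log2FC was 1.52 with an adjusted p of 0.168. At 14 DPA its means were 21225 FPKM in RD57 and 7381 FPKM in RD6.

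AgpS2b, the small subunit of the cytosolic AGPase, was higher in RD6 by a difference that did not pass without RD6 replicate 3. It had 19.6, 29.4 and 28.0 FPKM in RD57 and 45.8, 40.6 and 506 FPKM in RD6. The RD6 libraries lay above the RD57 libraries, with RD6 replicate 3 at 11.7 times the mean of its own replicates. The Log2FC was -1.94 ± 0.63 (SE, adjusted p = 0.0416, limma), past the adjusted p but short of the fold threshold. Without RD6 replicate 3 it was -0.76 ± 0.35 (SE, adjusted p = 0.184, limma), and in the fit to the 6 libraries the adjusted p was 0.352. Leaving out 1 RD57 library gave an adjusted p of 0.0694 to 0.137 (limma).

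The 5 CRA1-like genes, which the study annotates as a globulin-type storage protein, had RD6 replicate 3 at 18.6 to 192 times the mean of its own replicates. Near-identical copies of such a family share reads, and how the authors' processing divided them was not tested. Summed over the 5 genes, the level was 52.3, 52.1 and 46.7 FPKM in RD57 and 125, 166 and 14519 FPKM in RD6. RD6 replicates 1 and 2 were thus above RD57 by a small multiple, and replicate 3 was on another scale. The most abundant member, XLOC_009355, had 30.0, 31.5 and 25.3 FPKM in RD57 and 52.7, 99.1 and 9135 FPKM in RD6. Its Log2FC was -3.64 ± 1.15 (SE, adjusted p = 0.0373, limma), and without RD6 replicate 3 it was -1.31 ± 0.43 (SE, adjusted p = 0.0472, limma). Leaving out 1 RD57 library gave an adjusted p of 0.0787 to 0.104 (limma).

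Of the 5 CRA1-like genes, 3 passed the adjusted p with all libraries, XLOC_007132, XLOC_007189 and XLOC_009355. XLOC_009350 and XLOC_012528 had Log2FC of -2.97 and -3.196 with adjusted p of 0.112 and 0.0692 (limma). Without RD6 replicate 3 the same 3 passed the adjusted p, but XLOC_007189 alone also passed the fold threshold and remained a DEG. XLOC_007132 then had a Log2FC of -1.45 ± 0.43 (SE, adjusted p = 0.0255, limma). XLOC_007189 had 9.15, 9.54 and 7.63 FPKM in RD57 and 46.6, 44.3 and 2361 FPKM in RD6. Its Log2FC was -4.21 with all libraries and -2.32 ± 0.29 without RD6 replicate 3 (SE, adjusted p = 8.5e-06, limma). In the fit to the 6 libraries none of the 5 passed, with adjusted p from 0.177 to 0.566 (limma). At 7, 14 and 21 DPA none of the 5 differed past the threshold between the cultivars, and their group means then lay between 64.1 and 16886 FPKM. The fit gave each gene the same SE at every DPA, and RD6 replicate 3 at 28 DPA widened it. For XLOC_009350 it was 1.18, against 0.32 at 28 DPA without that library. Not passing therefore does not show equal levels. At 14 DPA XLOC_009350 had 1904 to 2645 FPKM in RD57 and 3830 to 4162 FPKM in RD6. XLOC_009355 went the other way, with 13622 to 15498 FPKM in RD57 and 8765 to 12537 FPKM in RD6.

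The RCAR3-like genes, annotated as abscisic acid receptors, were higher in RD6. XLOC_026739 had 1.85, 1.96 and 4.08 FPKM in RD57 and 22.4, 14.1 and 91.9 FPKM in RD6. RD6 replicates 1 and 2 were clearly above RD57 on their own. The Log2FC was -3.40 ± 0.53 (SE, adjusted p = 7.5e-05, limma), -2.62 ± 0.45 without RD6 replicate 3 (SE, adjusted p = 2.8e-04, limma), and the adjusted p in the fit to the 6 libraries was 0.0266. XLOC_026741 had 1.000, 1.195 and 0.804 FPKM in RD57, where replicate 1 equals the mean of its replicates, and 4.595, 4.77 and 44.8 FPKM in RD6. Its Log2FC was -2.84 ± 0.66 (SE, adjusted p = 0.0043, limma), and -1.80 ± 0.52 without RD6 replicate 3 (SE, adjusted p = 0.0221, limma), below the fold threshold. The fit to the 6 libraries gave it an adjusted p of 0.112 (limma). Both genes were also higher in RD6 at 21 DPA, with Log2FC of -1.53 and -2.11 (adjusted p = 0.0362 and 0.0195, limma). At 7 and 14 DPA their Log2FC lay between 0.08 and 0.78 and did not pass.

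**Figure D4:**
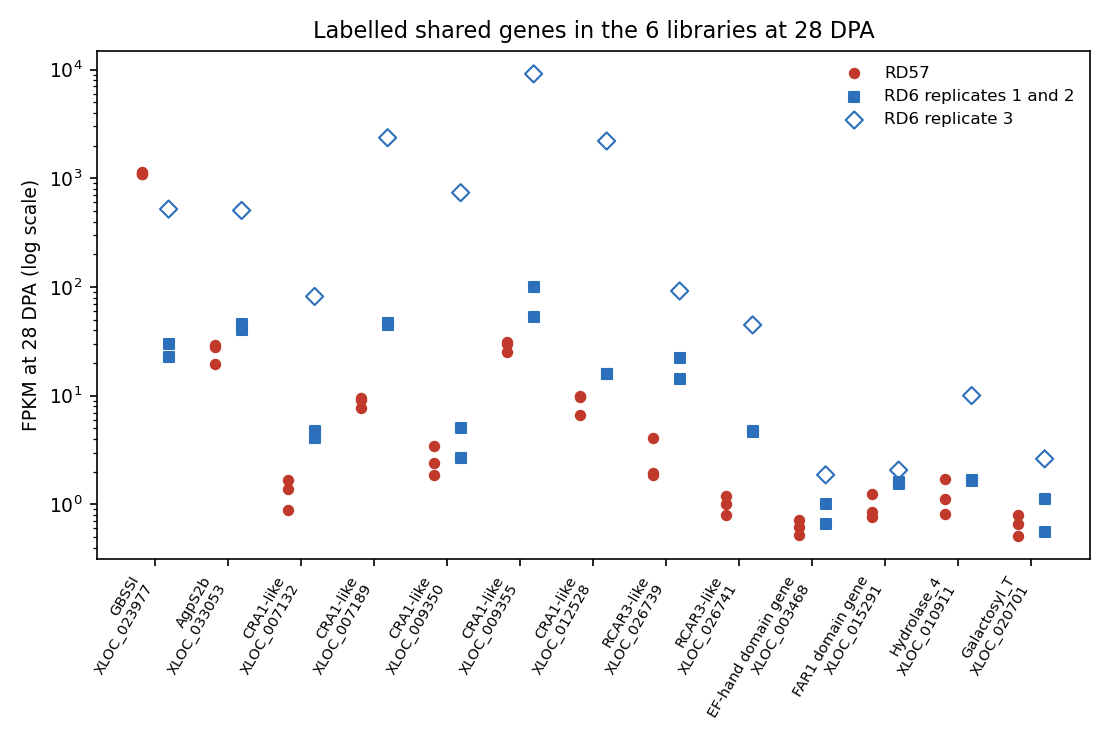
FPKM at 28 DPA on a log axis for the 13 labelled shared genes, 1 point per library. RD57 libraries are circles, RD6 replicates 1 and 2 are filled squares and RD6 replicate 3 is an open diamond, which for GBSSI (521 FPKM) and all CRA1-like genes lies well above the filled squares.

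The other 4 labelled genes, which the study names among those higher in RD6 and by protein domain or family alone, were low in mature grain and did not pass the adjusted p. The EF-hand domain gene had 0.626, 0.526 and 0.726 FPKM in RD57 and 0.998, 0.666 and 1.87 FPKM in RD6. Galactosyl_T averaged 0.656 ± 0.146 FPKM in RD57 and 1.43 ± 1.07 FPKM in RD6 (SD, n = 3 each). RD57 replicate 1 of the EF-hand domain gene and RD57 replicate 2 of Galactosyl_T equal the mean of their replicates, as filled values would. The FAR1 domain gene averaged 0.953 ± 0.252 FPKM in RD57 and 1.73 ± 0.289 FPKM in RD6, and Hydrolase_4 averaged 1.22 ± 0.449 FPKM in RD57 and 4.45 ± 4.82 FPKM in RD6 (SD, n = 3 each). Their Log2FC lay between -1.13 and -0.52, with adjusted p from 0.152 to 0.454 (limma). Without RD6 replicate 3 their Log2FC lay between -0.52 and -0.18, and none passed. RD6 replicate 3 held the highest of the 6 values for each of these 4 genes.

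The same library weighed on the DEGs higher in RD6 as a group. Their FPKM summed to 893, 706 and 768 in RD57 and to 4300, 4198 and 34714 in RD6, so that replicate 3 held several times as much as its replicates. The sums of the DEGs higher in RD57 were 9522, 7827 and 9813 in RD57 and 1687, 1076 and 1513 in RD6, with no library apart. The DEGs higher in RD6 were divided, after their values had been seen, into 26 in which RD6 replicate 3 was at least 4-fold above both of its replicates and 87 in which it was not. In the 26, medians at 14 DPA were 1273 FPKM in RD57 and 1340 FPKM in RD6, and 20 of them had their highest earlier mean at 14 DPA. In the 87, the medians at 14 DPA were 2.04 FPKM in RD57 and 9.84 FPKM in RD6. The larger part thus consisted of genes of modest level with a median Log2FC of -1.44 at 14 DPA, and the smaller part of abundant genes with a median of -0.35 then.

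Some DEGs were abundant in the mature grain. Among the 97 shared genes with a mean of at least 1000 FPKM in either cultivar, 3 DEGs were higher in RD57 and 3 were higher in RD6. Among the 1008 between 100 and 1000 FPKM, these counts were 11 and 16. The 3 higher in RD6 reached 1000 FPKM only through RD6 replicate 3. With that library left out of means and calls, 84 genes had at least 1000 FPKM, with 3 DEGs higher in RD57 and 0 higher in RD6. The counts between 100 and 1000 FPKM were then 13 and 9 of 1009 genes. Of the 10 most abundant DEGs higher in RD6, 7 had a value in RD6 replicate 3 that was 9.55 to 92.2 times the higher of its replicates. An exception had 163, 117 and 111 FPKM in RD57 and 715, 658 and 408 FPKM in RD6, where replicate 3 was the lowest RD6 library. The most abundant DEGs higher in RD57 include a gene with 531, 511 and 509 FPKM in RD57 and 38.1, 51.4 and 61.7 FPKM in RD6, which is even within both cultivars. Another had 788, 847 and 2260 FPKM in RD57 and 470, 12.7 and 10.6 FPKM in RD6, where replicate 1 stood apart rather than replicate 3. These 3 unnamed genes were picked after their values had been seen. Shares of DEGs are not compared between levels, since the 0.5 FPKM floor and the added 0.5 keep low genes from reaching a Log2FC of 2. By adjusted p alone, 186 genes of at least 100 FPKM were higher in RD57 and 50 were higher in RD6. They were 167 and 46 of the 1008 genes between 100 and 1000 FPKM, and 19 and 4 of the 97 above. Of all shared genes, 8.37% and 6.14% passed in these directions. The counts for genes of at least 100 FPKM were 165 and 51 with RD6 replicate 3 left out of the calls. These genes were still chosen by means that include that library. Quantile normalization kept the direction, with 114 and 85.

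The 28 DPA DEGs were then followed back through grain filling. Their Log2FC at the earlier DPA come from other libraries, although the spread behind each call was estimated over all 24. The median Log2FC of the DEGs higher in RD57 was 0.91, 1.39, 2.08 and 2.62 at 7, 14, 21 and 28 DPA. For the DEGs higher in RD6 it was -0.57, -1.003, -1.83 and -2.57. The 28 DPA values are those that made the call, and the medians over all shared genes stayed between 0 and 0.05. The difference in the direction of the 28 DPA call was thus present from 7 DPA on in the median gene of both sets. It was larger at 14 DPA and again at 21 DPA, while a larger value at 28 DPA follows from the call. Among the DEGs higher in RD6, the median at 7 DPA was 0.51 in the 26 raised in RD6 replicate 3 and -1.04 in the other 87. The DEGs higher in RD6 that were called without RD6 replicate 3 had medians of -1.04, -1.49, -2.15 and -2.34. For the DEGs called in the fit to the 6 libraries at 28 DPA, which took no spread from the earlier libraries, the medians at 7, 14 and 21 DPA were 0.82, 1.40 and 2.10 in the 105 higher in RD57 and -1.16, -1.52 and -2.27 in the 78 higher in RD6.

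At 21 DPA, 112 of the 114 DEGs higher in RD57 had a positive Log2FC, and all 113 DEGs higher in RD6 had a negative one. Over all shared genes at 21 DPA, 9573 were positive and 7866 were negative. At 7 DPA, 82 of the 114 were positive and 71 of the 113 were negative. Among DEGs called without RD6 replicate 3, 121 of 131 higher in RD57 and all 103 higher in RD6 had the sign of their 28 DPA call at 21 DPA, and 95 and 82 did at 7 DPA. Of the DEGs higher in RD57, 35, 39 and 63 were DEGs in the same direction at 7, 14 and 21 DPA, against 0.974%, 0.826% and 1% of all shared genes. Of those higher in RD6, 24, 30 and 52 were, against 0.792%, 0.781% and 0.878%. The sets called without RD6 replicate 3 gave 34, 37 and 62 of 131 and 23, 35 and 55 of 103. At least 1 earlier call in the same direction was found for 72 DEGs higher in RD57 (63.2%) and 55 higher in RD6 (48.7%), beside 2.09% and 1.93% of all shared genes. The counts were 70 of 131 (53.4%) and 62 of 103 (60.2%) for the sets called without RD6 replicate 3, and 68 of 105 (64.8%) and 52 of 78 (66.7%) for those of the fit to the 6 libraries. With all libraries, 28 and 18 were called at every DPA, beside 0.199% and 0.12% of shared genes called so at the 3 earlier DPA, and a call in the opposite direction was found for 1 and 2.

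**Figure D5:**
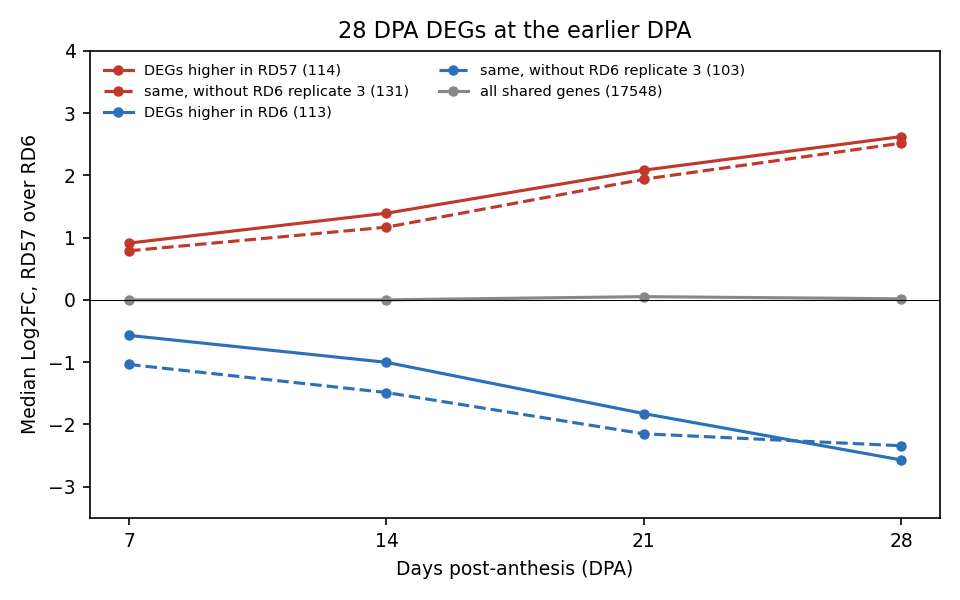
Median Log2FC (RD57 over RD6) by DPA of the genes called DEGs at 28 DPA, with all libraries (solid) and without RD6 replicate 3 (dashed), and of all shared genes (grey). The medians move away from 0 with DPA, to 2.08 and -1.83 at 21 DPA in the sets called with all libraries.

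Among the earlier DPA, 62 of the 114 had their highest mean over both cultivars at 21 DPA (54.4%), 31 at 14 DPA and 21 at 7 DPA, beside 44.6%, 24.5% and 30.9% of all shared genes, and the share at 21 DPA was 51.1% in the set called without RD6 replicate 3. For the DEGs higher in RD6 the picture depended on the libraries. With all libraries, 40 of the 113 had their highest earlier mean at 21 DPA (35.4%) and 42 at 14 DPA. Without RD6 replicate 3 the share at 21 DPA was 50.5%, without RD6 replicate 1 it was 21.0% and without RD6 replicate 2 it was 23.7%.

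A test of the change in Log2FC from 21 to 28 DPA passed an adjusted p of 0.05 in 1046 shared genes (5.96%, against 17.1% of the table). Of these, 427 moved towards RD57 and 619 moved towards RD6. The count was 1446 when RD6 replicate 3 was left out, with 708 and 738, and 376 and 533 of the genes were found both ways. Among the genes named above, the change passed for XLOC_003542 (-1.31, adjusted p = 0.0046, limma), whose RD6 value at 21 DPA is the floor, and XLOC_031030 (-1.44, adjusted p = 0.0066, limma), and also for the EF-hand domain gene and Galactosyl_T. For GBSSI the change was 0.47 ± 1.08 (SE, adjusted p = 0.972, limma) and for the RCAR3-like gene XLOC_026739 it was -1.87 ± 0.75 (SE, adjusted p = 0.113, limma). These changes of single genes were computed with RD6 replicate 3 included. A change that did not pass is not shown to be absent.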

How the data were processed

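The authors trimmed reads with Fastp and Trimmomatic, removed rRNA with SortMeRNA, aligned to the indica genome ASM465v1 with HISAT2, and obtained FPKM with Cufflinks, Cuffmerge, Cuffquant and Cuffnorm. In the deposited FPKM the authors dropped values under 0.5, kept genes seen in 2 or more replicates, and filled gaps with the replicate mean. The table does not give the reads behind a value, and the library totals in the study's supplement were not used here, so precision comes from the replicates. All 24 columns were matched to samples.

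In R 4.3.3, log2(FPKM + 0.5) was fitted with limma 3.58.1 (8 group means, 24 libraries, trended prior variance), with Benjamini-Hochberg adjustment over 26362 genes. The study's own test, a model of read counts, was not applied to FPKM. A 3 against 3 exact permutation test cannot go below p = 0.1. The fit was tested on simulated data. Alternatives were pseudocounts, normalization, filters, weights, pairing and left-out libraries. Plots used matplotlib 3.10.9 and pandas 2.3.3 under Python 3.11.15.

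Members and lists were chosen with earlier results of these data known. Named genes were the labelled shared genes, plus the 2 largest and 2 smallest Log2FC among DEGs called in all 3 fits. Names were read by eye from the study's gene labels. No identifier could be matched to the gene table used here, so no sequence is given. A gene counted as filled where a replicate equalled the mean of the others within a relative 1e-06.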

Additional observations from a re-analysis of the deposited data

Results flagged for a closer look

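For 4 of the named genes, the RD57 over RD6 Log2FC differed between 28 and 21 DPA by the test of that change itself (limma, all libraries, adjusted over all genes). XLOC_003542 changed by -1.31 ± 0.32 (SE), with RD57 means of 52.6 FPKM at 28 DPA and 54.7 FPKM at 21 DPA, and RD6 at 0.544 to 0.712 FPKM at 28 DPA and listed at 0 at 21 DPA. That 0 stands for any level below 0.5 FPKM, so the size of this change is not known, and a level just under the floor would leave little of it. XLOC_031030 changed by -1.44 ± 0.36 (SE), with RD6 means of 57.8 FPKM at 28 DPA and 28.5 FPKM at 21 DPA. The EF-hand domain gene changed by 1.51 ± 0.49 (SE, adjusted p = 0.0381, limma), since RD6 had 1.18 FPKM at 28 DPA and 5.98 FPKM at 21 DPA. Galactosyl_T changed by 1.90 ± 0.50 (SE, adjusted p = 0.0084, limma), with RD6 means of 1.43 FPKM at 28 DPA and 9.43 FPKM at 21 DPA. In RD57, both of these genes averaged at most 1.27 FPKM at either DPA. At 28 DPA both were within a few FPKM of the 0.5 FPKM floor in both cultivars. The floor and the added 0.5 draw a Log2FC towards 0 there, so the size of these 2 changes is uncertain too.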

How the results depend on the processing

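Counts of DEGs (total and by direction) stayed within 1.5 times of 227, 114 and 113 under all alternatives but a lower fold threshold: a threshold of 1 gave 1074 DEGs, 579 higher in RD57 and 495 higher in RD6, with an earlier call in the same direction for 370 and 314. With a pseudocount of 0.1, 83 DEGs higher in RD6 had such an earlier call, in place of 55. By adjusted p alone, the 6 libraries at 28 DPA gave 1221 shared genes (759 and 462), library weights gave 5832 (3303 and 2529), and quantile normalization gave 925 higher in RD57. For genes of at least 100 FPKM, an alternative set chosen after seeing the data, these gave 89 and 21, 362 and 91, and 114 and 85. Leaving out each 28 DPA library in turn gave 226 to 283 DEGs, and the share of DEGs higher in RD6 with their highest earlier mean at 21 DPA lay between 21.0% and 50.5%. Galactosyl_T, which was not called, turned to 0.0183 with library weights. Replicate numbers were not treated as pairs. Deviations of same-numbered libraries from their group means correlated with r = 0.24, 0.11 and 0.08 for numbers 1, 2 and 3. The same number was the best match for RD6 replicates 1 and 2, whereas RD6 replicate 3 correlated best with RD57 replicate 2. These values across genes cannot exclude pairing, and a replicate block gave 116 DEGs higher in RD57 and 109 higher in RD6. GBSSI passed the adjusted p in all but 1 of 17 alternatives, and AgpS2b and CRA1-like XLOC_009355 in all but 6 each (adjusted p 0.0697 for XLOC_009355 with the replicate block, limma), while XLOC_009350 and XLOC_012528 gained a pass in 2 each. The reads behind a value are not given in the table, values below 0.5 FPKM cannot be compared, filled values narrow the spread, and with 3 libraries a group 1 library can decide a value.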
